A study of Danio rerio with 8 samples.

Results

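Whole wildtype zebrafish embryos were measured at 2 stages, in normal oxygen and in hypoxia. Among 2650 genes with a symbol on the array, a set of 7 genes of somite patterning and muscle was followed. They were meox1 (NM_001002450), uncx4.1 (NM_001020780), ripply1 (NM_001039108), smyd1b (NM_001039636), tpm4a (NM_001024467), acta1b (NM_214784) and mybpc2b (NM_001013511), each measured by 1 row of 37157. All were chosen by name, with earlier results of these arrays known. The difference between the stages in normoxia, which had been seen for 6 of the genes, is therefore given as a description. For mybpc2b the value behind the choice is not recorded, and for ripply1 the response at the later stage had also been seen. Embryos were raised at 28.5 °C and taken at the shield stage of gastrulation (6 h) or with 8 somites (12 h), in normal oxygen or after 1 to 2 h in a nitrogen-flushed chamber with water below 1% oxygen. Each sample was a pool of 12 to 15 embryos. Values came from 2 normoxic gastrula arrays, 2 hypoxic gastrula arrays, 2 normoxic segmentation arrays and 1 hypoxic segmentation array, where replicate 2 held 0 values. Each group of 2 had 1 array labelled with Cy3 and 1 with Cy5, and the single hypoxic segmentation array was labelled with Cy5.

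Somites are blocks of paraxial mesoderm that bud off in pairs from the unsegmented tissue behind them, after gastrulation has laid that mesoderm down. A transcriptional clock sets the rhythm, boundary genes such as ripply1 switch off the presomitic programme, and homeobox genes such as meox1 and uncx4.1 give the new somite its parts. Cells of the somite then become muscle and switch on the proteins of the sarcomere, in which thin filaments of actin and tropomyosin slide along thick filaments of myosin and myosin-binding protein C. Hypoxia is known to slow or arrest zebrafish development. The labels define whole embryos, so that fewer cells of a type and less RNA per cell cannot be told apart in any value below.

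All values are deposited log2 intensities, and values of different genes are not compared with each other because each row has its own probes. Array medians lay between 8.51 and 8.74, while the interquartile range was 2.18 and 2.31 on the hypoxic gastrula arrays and 2.75 and 2.86 on the normoxic ones. Bright rows were lower and middling rows higher in hypoxic gastrulae as a whole. All rows were ranked by mean level into 10 groups of like size (1 the dimmest), whose median hypoxia difference in gastrulae was -0.19 for group 7, -0.50 for group 8, -0.56 for group 9 and 0.20 for group 5. The 7 genes lay in level groups 7, 8 and 9. At the maternal end, the 4 measured maternal and early zygotic genes had a median stage difference of -1.35 in normoxia, beside -0.06 for all rows.

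Among the patterning genes, meox1 encodes a homeobox factor of the whole somite. Its values were 11.29 and 10.79 in normoxic gastrulae and 13.80 and 14.31 in normoxic segmentation embryos. Hypoxic gastrulae gave 11.58 and 9.76, and the hypoxic segmentation array gave 13.61. Every segmentation array was above every gastrula array, and the hypoxic gastrula pair spanned its normoxic controls. The gap of 1.82 within that pair was wide: 0.161% of all rows had a larger one between these 2 arrays.

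The homeobox gene uncx4.1 marks the posterior part of each somite. It stood at 8.96 and 8.62 in normoxic gastrulae, 9.13 and 9.11 in hypoxic gastrulae, 9.61 and 10.24 in normoxic segmentation embryos and 9.77 in the hypoxic one. Stages did not overlap, the hypoxic gastrulae were just above their controls, and the hypoxic segmentation value lay between its controls. The patterning gene ripply1 encodes a corepressor that ends the presomitic programme where a boundary forms. It read 11.66 and 11.02 in normoxic gastrulae, 11.61 and 11.13 in hypoxic gastrulae, 12.59 and 12.91 in normoxic segmentation embryos and 13.50 in the hypoxic segmentation sample. The hypoxic gastrulae were inside the range of their controls, and the hypoxic segmentation array was above both of its controls.

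Among the muscle genes, smyd1b encodes a muscle methyltransferase and myosin chaperone partner needed for thick filament assembly. It gave 9.10 and 9.02 in normoxic gastrulae, 9.36 and 9.05 in hypoxic gastrulae, 10.15 and 10.77 in normoxic segmentation embryos and 10.23 under hypoxia at that stage. Oxygen left the groups overlapping at both stages, whereas the stages were apart. Whether the signal of the tropomyosin gene tpm4a came from muscle cells was not tested. The row of tpm4a corresponds to 1 of the gene's RefSeq transcripts. Here the normoxic gastrulae were at 9.08 and 8.23, the hypoxic gastrulae at 10.89 and 11.16, the normoxic segmentation embryos at 12.23 and 11.95 and the hypoxic one at 11.64. Hypoxic gastrulae thus lay between normoxic gastrulae and all segmentation arrays, and overlapped neither. How many rows of the table share this order was not counted.

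The skeletal muscle actin gene acta1b was at 11.86 and 11.31 in normoxic gastrulae and 11.25 and 10.99 in hypoxic gastrulae. In segmentation embryos it was at 12.59 and 12.47 in normoxia and 12.21 in hypoxia. Hypoxic arrays were below their own stage's controls at both stages, by a narrow margin at the gastrula stage. Actin paralogs are alike in sequence, and whether the probes of this row separate them could not be checked because probe sequences were not used here. Last, mybpc2b encodes a myosin-binding protein C of the thick filament, of the fast skeletal type. It gave 9.48 and 8.55 in normoxic gastrulae, 10.63 and 9.90 in hypoxic gastrulae, 9.74 and 9.05 in normoxic segmentation embryos and 11.42 in the hypoxic segmentation sample. This was the gene of the set whose normoxic stages overlapped, and all 3 hypoxic arrays lay above all 4 normoxic ones. The share of all rows with that order of arrays was not counted.

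**Figure D1:**
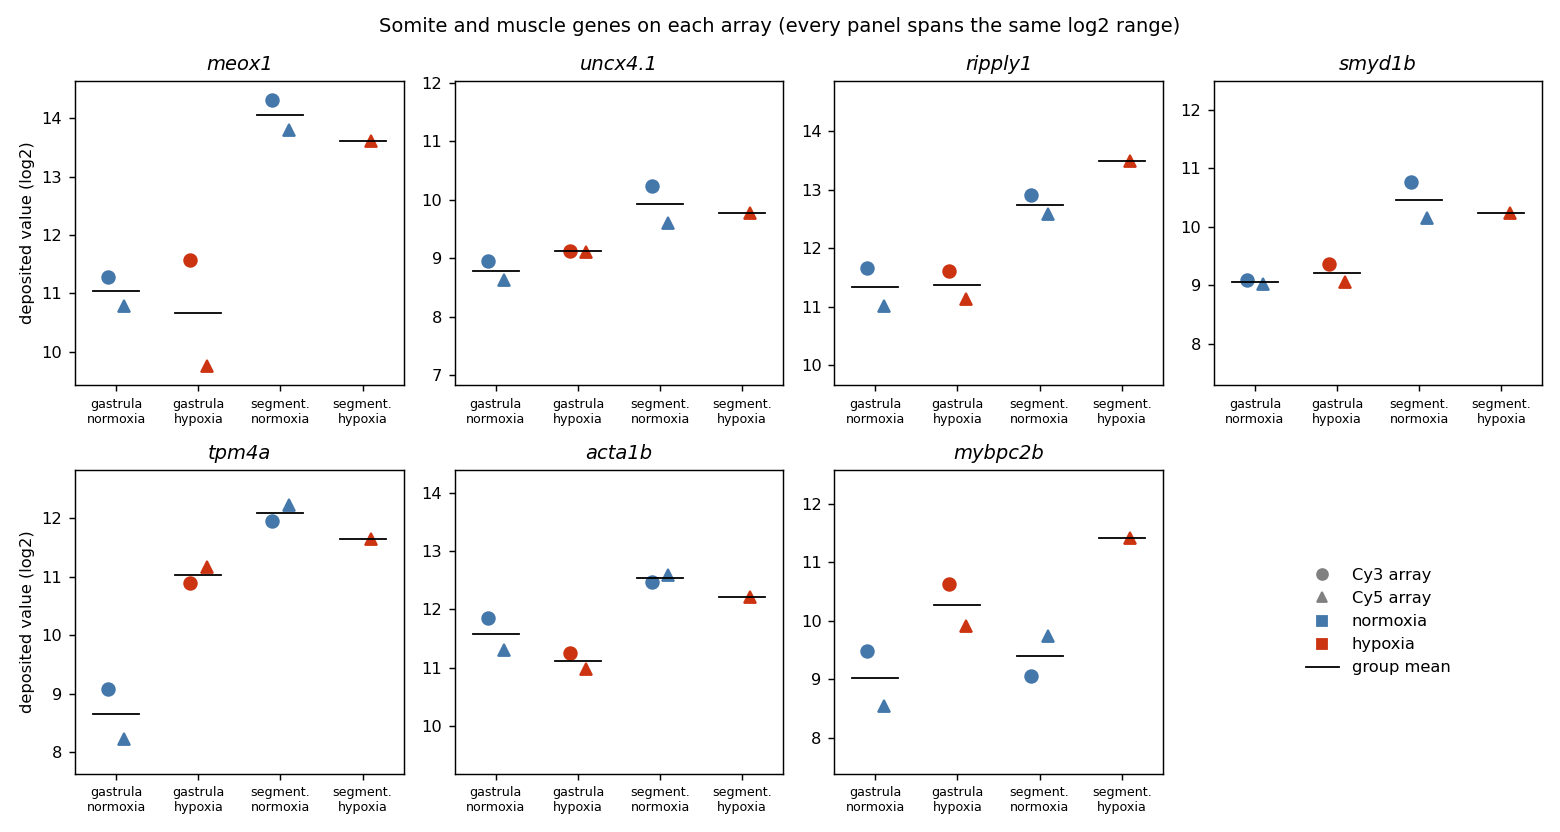
Deposited log2 value (vertical axis) of each gene on the 7 arrays by group (horizontal axis), with circles for Cy3 and triangles for Cy5 arrays, blue for normoxia and red for hypoxia, and a line at the group mean. The pattern of tpm4a, where the hypoxic gastrulae at 10.89 and 11.16 sit between the other gastrulae and the segmentation arrays, differs from that of mybpc2b, where the 3 hypoxic arrays at 9.90 to 11.42 are the highest.

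From gastrula to segmentation in normoxia, tpm4a had the widest difference of the set. Its mean went from 8.66 ± 0.60 to 12.09 ± 0.20 (SD, n = 2 each), a difference of 3.43 or 10.8-fold. Next was meox1, from 11.04 ± 0.35 to 14.05 ± 0.36, a difference of 3.01 or 8.07-fold. Differences of 1.41 for ripply1 (2.65-fold), 1.40 for smyd1b (2.64-fold), 1.13 for uncx4.1 (2.19-fold) and 0.95 for acta1b (1.93-fold) followed, and all exceeded the gap between replicates. The difference of 0.38 for mybpc2b was smaller than the gaps of 0.93 and 0.69 between its replicates, and went in opposite directions in the Cy3 arrays (-0.43) and the Cy5 arrays (1.19). In all, 6 of 7 genes had every segmentation array above every gastrula array, against 21.4% of all rows, and 5 of 7 were higher past an adjusted p of 0.05, against 6.21% of all rows. As the genes other than mybpc2b had been picked with this contrast in view, nothing is read from these shares.

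The same stage comparison among hypoxic embryos took its group means from other arrays than those of the normoxic stage difference. Its dye term and its spread were fitted over all 7 arrays, the normoxic ones included. The choice was not wholly apart from the hypoxic arrays either. The response of ripply1 that had been seen rests on the same hypoxic segmentation array, and for mybpc2b the basis is unknown. The comparison showed whether the genes also differ between the stages when oxygen is lowered shortly before collection. All 7 genes were higher in the hypoxic segmentation sample than in both hypoxic gastrula samples, against 28.1% of all rows. The genes other than mybpc2b had been picked with a normoxic rise between these stages in view, so a rise here is favoured by the choice. The shares of all rows in this comparison are then no background of like genes, and nothing is read from the counts. After adjustment for dye in a limma fit over all rows, meox1 rose by 3.41 ± 0.50 (SE; adjusted p = 0.047) and ripply1 by 2.37 ± 0.24 (adjusted p = 0.026). The value of ripply1 is partly a description, since its response at the later stage had been seen. Thus 2 of 7 genes passed, against 1.97% of all rows that passed and were higher. The means behind them were 10.67 and 13.61 for meox1 (7.67-fold) and 11.37 and 13.50 for ripply1 (4.37-fold).

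The other 5 genes did not pass in this comparison. Their fitted differences were 1.31 ± 0.56 for mybpc2b, 1.21 ± 0.30 for acta1b, 1.19 ± 0.27 for smyd1b, 0.81 ± 0.29 for uncx4.1 and 0.66 ± 0.44 for tpm4a, with limma adjusted p from 0.13 for smyd1b to 0.58 for tpm4a. By the unadjusted p under 0.05, 5 of 7 genes were higher, against 9.92% of all rows. The median of the 7 was 1.21, and that of all rows was -0.10. It was -0.03 in level group 7, 0.14 in group 8 and 0.23 in group 9. Every one of these values rests on 1 segmentation array, whose spread was assumed to equal that of the other groups.

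Both calls depended on few arrays. Without gastrula hypoxia replicate 1 the adjusted p was 0.077 for meox1 and 0.12 for ripply1, and without gastrula hypoxia replicate 2 it was 0.26 and 0.29 in the same limma fit. Leaving out segmentation normoxia replicate 1 or replicate 2 gave 0.098 and 0.074 each time, and without the dye term meox1 had 0.10 and ripply1 0.035. With a replicate block in place of dye both calls were lost in limma, at an adjusted p of 0.14 for meox1 and 0.0996 for ripply1. With that block 0 rows of the whole table passed, against 890 in the main fit, so the loss was not particular to these genes. Calls over the whole table were also lost without either hypoxic gastrula or either normoxic segmentation array. Both genes passed after quantile normalization again, after median centring, with the lowest rows removed and with an intensity trend. Leaving out either gastrula normoxia array gave differences of 3.52 for meox1 and 2.33 for ripply1. The differences themselves stayed between 2.54 and 3.85 for meox1 and between 2.10 and 2.47 for ripply1 over all settings run. On the Cy5 arrays alone, where 1 array of each stage remains, they were 3.85 and 2.37.

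**Figure D2:**
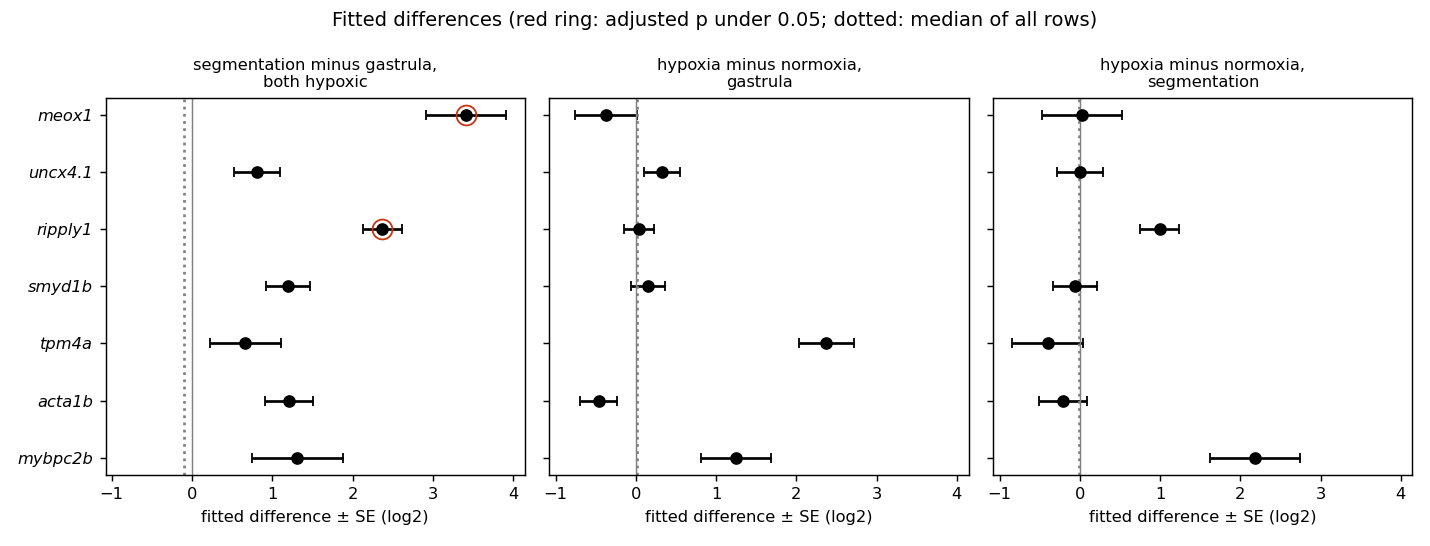
Fitted log2 difference with its SE (horizontal axis) for each gene (vertical axis) in the 3 tested comparisons. Rings mark meox1 and ripply1, the genes with an adjusted p under 0.05, both in the stage comparison among hypoxic embryos, and the dotted line is the median of all rows.

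Hypoxia and normoxia at the gastrula stage were compared next, to see how the set behaved before somites had formed. The largest difference of the 7 was that of tpm4a, from 8.66 ± 0.60 in normoxia to 11.03 ± 0.19 in hypoxia (SD, n = 2 each), or 2.37 ± 0.34 (SE; 5.17-fold). It was 1.81 between the Cy3 arrays and 2.93 between the Cy5 arrays, and 0.433% of all rows had a larger fitted difference. Calls in this comparison moved over the whole table, from 0 rows in the main fit to 3025 without the dye term and 1300 after median centring. The normoxic gastrula arrays, on which tpm4a had been picked as low, are the controls here. A positive difference, and a low p in any setting below, is therefore favoured by the choice. The limma adjusted p of tpm4a was 0.060 in the main fit, so tpm4a did not pass. It passed without the dye term (adjusted p = 0.024), with arrays centred on their medians (0.041), without the lowest 25% of rows (0.031), with an intensity trend (0.035) and without gastrula normoxia replicate 1 (0.0093, with a difference of 2.93). It did not pass after quantile normalization of the rows again (2.65, adjusted p = 0.068), with a replicate block in place of dye (0.12), without gastrula normoxia replicate 2 (a difference of 1.81, 0.082), without gastrula hypoxia replicate 1 (2.65, 0.17) or replicate 2 (2.09, 0.55), or without either segmentation normoxia array (0.12 each time), all in limma.

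The other gene with a large difference in hypoxic gastrulae was mybpc2b, at 10.27 ± 0.51 against 9.02 ± 0.66 (SD, n = 2 each), or 1.25 ± 0.43 (SE; 2.38-fold, limma adjusted p = 0.16). It differed by 1.15 on Cy3 and 1.35 on Cy5 arrays, and by 0.79 without gastrula normoxia replicate 2. Smaller values were found for acta1b (-0.47 ± 0.23), meox1 (-0.37 ± 0.38), uncx4.1 (0.33 ± 0.22), smyd1b (0.15 ± 0.21) and ripply1 (0.03 ± 0.19), with adjusted p from 0.27 to 0.94. The value of uncx4.1 was 0.56 without gastrula hypoxia replicate 1, 0.099 without replicate 2 and 0.15 after median centring. The sign of meox1 differed between dyes, at 0.29 on Cy3 and -1.03 on Cy5. That of acta1b turned after quantile normalization again (0.06), and those of ripply1 (-0.14) and smyd1b (-0.03) after median centring.

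In this comparison 0 of 7 genes passed after adjustment, as did 0% of all rows. At an unadjusted p under 0.05 there were 2 of 7, both higher, against 11% of all rows that were higher and 26.8% in either direction. The arrays did not overlap for 3 genes that were higher (tpm4a, mybpc2b and uncx4.1) and 1 that was lower (acta1b), against 31.5% and 29.8% of all rows. A count of 4 out of 7 is near the background of 61.4%. All 7 genes lay above the median of the rows in their own level group, as deposited, after quantile normalization and after median centring. Members other than mybpc2b had been picked with low normoxic gastrula values relative to segmentation in view. These normoxic arrays enter the hypoxia comparison as well, so a positive difference of those members is favoured by the choice. For mybpc2b the basis of the choice is not recorded.

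At the segmentation stage, mybpc2b was the gene with the largest hypoxia difference. The hypoxic array read 11.42 against a normoxic mean of 9.40 ± 0.49 (SD, n = 2), a difference of means of 2.02 (4.06-fold) and a fitted difference of 2.18 ± 0.56 (SE; limma adjusted p = 0.62). It was 1.68 against the Cy5 control alone, and 0.178% of all rows had a larger fitted difference. For ripply1 the fitted difference was 0.99 ± 0.24 and that of the means 0.76 (1.69-fold). This value had been seen before the gene was chosen and is a description. It was 0.92 against the Cy5 control, and stayed between 0.76 and 1.15 in every setting run.

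The remaining genes had fitted differences of 0.03 ± 0.50 for meox1, 0.01 ± 0.29 for uncx4.1, -0.06 ± 0.27 for smyd1b, -0.21 ± 0.30 for acta1b and -0.40 ± 0.44 for tpm4a, with limma adjusted p from 0.98 upward. The dye term moves these values, since the hypoxic array is a Cy5 array: the plain difference of means was -0.44 for meox1, -0.16 for uncx4.1 and -0.23 for smyd1b. Against the Cy5 control they were -0.19, 0.16 and 0.08. Signs also turned with scaling, after median centring for meox1 (-0.03) and uncx4.1 (-0.05) and after quantile normalization again for smyd1b (0.22). Hypoxic values lay below both controls for meox1, tpm4a and acta1b and above both for mybpc2b and ripply1, against 38.4% and 33.7% of all rows. Thus 5 of 7 did not overlap, beside 72.1% of all rows. The median fitted hypoxia difference at this stage was -0.15 in level group 7, -0.28 in group 8 and -0.24 in group 9. The 7 genes lay in these groups, tpm4a in group 8 and acta1b in group 9. Of the 7 genes 0 passed after adjustment, against 0% of all rows, and 2 of 7, ripply1 and mybpc2b, had an unadjusted p under 0.05, both higher, against 2.47% of all rows that were higher. Nothing is read from this count, since the value of ripply1 had been seen and the basis for choosing mybpc2b is not recorded.

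Set side by side, the hypoxia differences of the 7 genes took several forms. For mybpc2b both were positive, at 1.25 in gastrulae and 2.18 at segmentation. For tpm4a they were 2.37 and -0.40, and the difference between them was -2.77 ± 0.56 (limma adjusted p = 0.99986, unadjusted p = 0.0045). That difference had 0.0431% of all rows below it, 4.22% of all rows had an unadjusted p under 0.05, and 0% passed after adjustment. The normoxic arrays on which tpm4a had been picked, low in gastrulae and high at segmentation, enter this difference and favour a negative value. Without segmentation normoxia replicate 1 the segmentation value of tpm4a was -0.019. For acta1b they were -0.47 and -0.21, and for ripply1 0.03 and 0.99. The values of meox1, uncx4.1 and smyd1b lay between -0.37 and 0.33 at both stages.

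After each gene was centred on its own mean over the 7 arrays, the root mean square distance between genes ran from 0.21, for uncx4.1 and smyd1b, to 1.69, for meox1 and mybpc2b. A distance grows with the range of the genes' values, so these figures are not ranked. These distances describe 7 arrays that differ by stage, oxygen and dye.

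The wider pathway was represented by 44 measured genes of 238 listed in 6 groups, the 7 genes included. In the stage comparison among hypoxic embryos 2 of the 44 rose and 0 fell, namely meox1 and ripply1, and the 44 had a median of 0.01 beside -0.10 for all rows. Without the 7 genes the median was -0.07, and 0 of 37 passed, against 1.97% of all rows that passed and were higher. At an unadjusted p under 0.05 (limma) there was 1 of 37, against 9.92% of all rows that were higher. That gene was prdm1a, a regulator of slow muscle fate (1.04 ± 0.36).

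Of 4 measured genes of the segmentation clock and paraxial mesoderm, her12, a clock repressor, differed by 0.44 ± 0.25 between the hypoxic stages, and the Notch mediator genes rbpja and rbpjb by 0.37 ± 0.32 and 0.19 ± 0.24. Of 6 somite patterning genes, pax1a of the sclerotome differed by -0.38 ± 0.23. Among 7 myogenic regulators, the splicing factor gene rbfox1l differed by 0.73 ± 0.30, the excitation-contraction coupling gene stac3 by -0.89 ± 0.40 and the cofactor gene vgll2a by -0.16 ± 0.27. Apart from the members, none of these passed.

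No sarcomere gene other than the members had an unadjusted p under 0.05 in that comparison. Of 14 thin filament and Z-disc genes, the tropomyosin genes tpm1 and tpm2 differed by -0.32 ± 0.25 and -0.47 ± 0.34 between the hypoxic stages, where tpm4a had 0.66. Of 5 thick filament genes, mybpc1, the slow-type myosin-binding protein C gene, differed by -0.40 ± 0.30. The heart myosin genes myl7, for a light chain, and myh6, for a heavy chain, differed by -0.26 ± 0.26 and -0.19 ± 0.33. Of 8 genes of calcium handling and muscle energy, jph2, which holds membrane junctions together, differed by -0.41 ± 0.26, sgcb of the sarcoglycan complex by 0.39 ± 0.28, pygma, the muscle glycogen phosphorylase gene, by -0.25 ± 0.23 and casq1b, for a calcium store protein, by -0.24 ± 0.30.

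Under hypoxia in gastrulae, 37 of the 44 genes lay above 0 as deposited, beside 51.5% of all rows, with a median of 0.20. Both the count and this share depended on scaling. The count was 29 after quantile normalization again, beside 48.6% of all rows, and 23 after median centring, beside 35.1% of all rows. In all 3 scalings 30 of 44 lay above the median of their level group, and 23 of 37 without the 7 genes. By definition as many rows of a level group lie above its median as below it. The median over all rows was 0.01 as deposited and -0.16 after that centring. After adjustment 0 of 44 passed in limma, and 9 had an unadjusted p under 0.05, all higher, against 11% of all rows. Without the 7 genes this count was 7 of 37. Relatives of the members had smaller differences than tpm4a and mybpc2b: tpm1 differed by 0.05 ± 0.19, tpm2 by 0.15 ± 0.26 and mybpc1 by 0.41 ± 0.24. At segmentation 31 of 44 lay above 0, beside 48.3% of all rows. The count was 29 after quantile normalization again, beside 47.3%, and 26 after median centring, beside 40.3%. Of the 44, 0 passed, as did 0% of all rows, and 5 had an unadjusted p under 0.05, all higher, against 2.47% of all rows. Without the 7 genes, ripply1 and mybpc2b among them, this count at segmentation was 3 of 37. The lists were also chosen with earlier results known, so nothing is read from it. There tpm1 differed by -0.41 ± 0.25 and mybpc1 by 0.18 ± 0.30. A list gene picked out after its values were seen stood near mybpc2b and tpm4a in size: pax7a, a paired box factor of muscle precursors and neural crest, differed by 2.19 ± 0.36 in gastrulae (limma adjusted p = 0.067) and by 1.68 ± 0.47 at segmentation (limma adjusted p = 0.62).

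**Figure D3:**
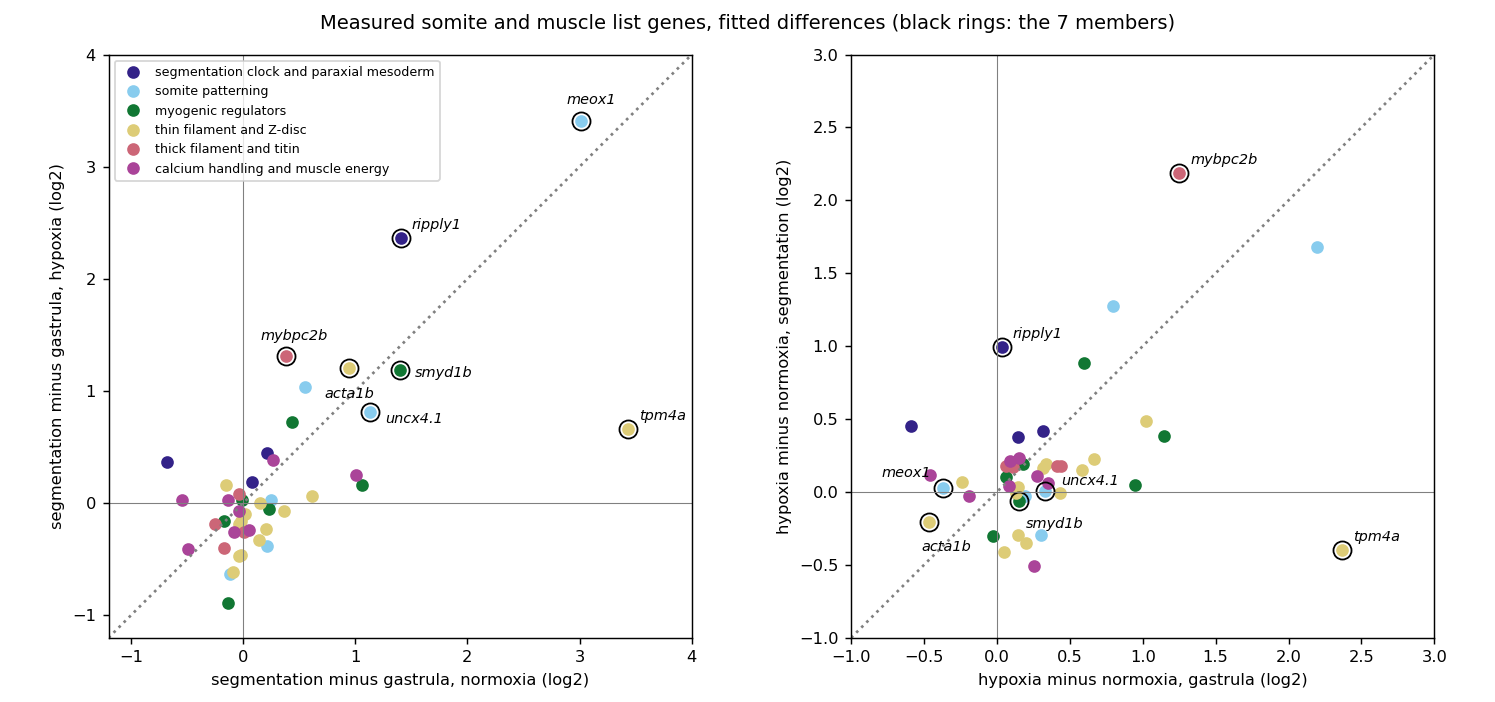
Fitted log2 differences of the 44 measured somite and muscle list genes, coloured by list, with rings round the 7 genes and a dotted line of equal values. Left, the stage difference in normoxia (horizontal) against that in hypoxia (vertical), where tpm4a lies at 3.43 and 0.66; right, the hypoxia difference in gastrulae (horizontal) against that at segmentation (vertical), where mybpc2b lies at 1.25 and 2.18.

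Markers of other tissues were looked up beside these results. Mean levels of 3 epidermal markers were 11.99 and 12.14 in normoxic and 12.42 and 12.66 in hypoxic gastrulae. Those of 2 heart and blood mesoderm markers were 8.06 on both normoxic arrays and 8.66 and 8.86 on the hypoxic ones, and those of 2 notochord markers were 8.90 and 9.23 against 9.26 and 9.67. The 3 neural markers had 10.13 and 10.38 against 10.46 and 10.66. Across these 4 lists 7 of 10 markers lay above 0 in hypoxic gastrulae, 3 of them with an unadjusted p under 0.05 (limma), and 0 passed, beside 51.5%, 11% and 0% of all rows. Genes within a list differed from each other. Fitted differences were 1.27 for agr1, 1.23 for runx1, 1.05 for cav1, 0.97 for her3, 0.34 for fezf2, 0.33 for foxi3a and 0.18 for hbbe3. They were -0.16 for krt97, -0.26 for lamb1a and -0.41 for sox19b. Maternal and early zygotic genes had means of 12.91 and 13.18 in normoxic and 11.99 and 12.23 in hypoxic gastrulae. Of these genes 4 of 4 lay below 0, where 51.5% of all rows lay above it. As deposited, 1 of the 4 lay above the median of its level group. After quantile normalization again, 1 of the 4 lay above 0. At an unadjusted p under 0.05 (limma) there were 2 of the 4 as deposited, against 26.8% of all rows in either direction, and 0 passed adjustment. At segmentation 5 of the 10 tissue markers lay above 0 and 3 of 4 maternal genes below, where 48.3% of all rows lay above 0. Whether these differences have a part in the values of tpm4a and mybpc2b was not tested.

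For each gene the 3 other named genes with the nearest centred values over the 7 arrays were looked up. Nearest to tpm4a were zgc:153284 (root mean square distance 0.43), agr1 of mucous and epidermal cells (0.49) and the fatty acid-binding gene fabp1b.1 (0.59). All 3 had both hypoxic gastrulae above both normoxic ones and every segmentation array above every gastrula array. Nearest to mybpc2b were tfb1m, a mitochondrial rRNA methyltransferase gene (0.47), gc, which encodes vitamin D-binding protein (0.49), and the Hsp90 cochaperone gene chordc1a (0.51). Like mybpc2b, all 3 had every hypoxic array above every normoxic one. Because the nearest genes were picked on these same 7 arrays, a shared order follows from the choice. Nothing is read from it for tpm4a or mybpc2b.

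Closer matches existed for genes of smaller range. For uncx4.1 they were wu:fu71h07 (0.14), zgc:92749 (0.17) and the proteasome subunit gene psmd13 (0.17). For acta1b they were mrpl17 of the mitochondrial ribosome (0.16), the prolyl isomerase gene fkbp3 (0.17) and cmc1 (0.18), and for smyd1b the protocadherin gene pcdh1g2 (0.18), the hemojuvelin gene hjv (0.18) and the metalloproteinase gene mmp30 (0.19). The nearest to ripply1 were glod5 (0.26), the centrin gene cetn3 (0.30) and the actin-bundling gene pls3 (0.30), and to meox1 the reticulocalbin gene rcn3 (0.39), zgc:136410 (0.50) and zgc:162608 (0.54). A small distance follows in part from a small range of values, so distances of different genes are not comparable.

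**Figure D4:**
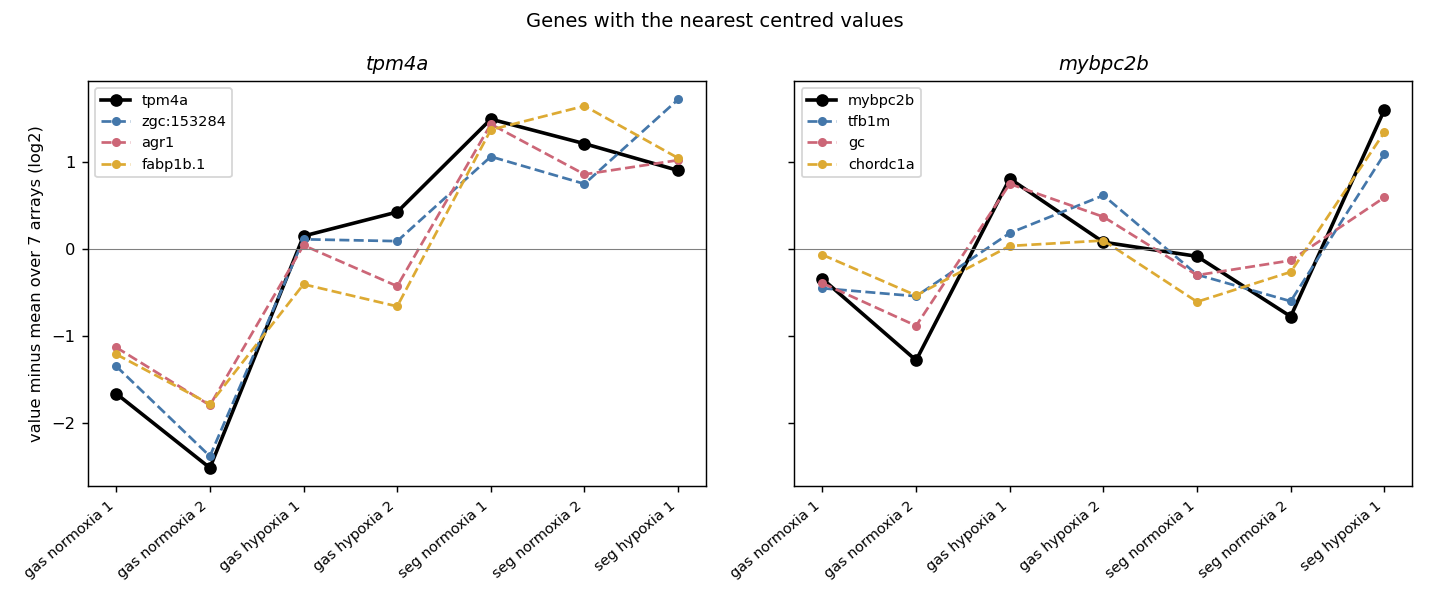
Log2 value minus the gene's mean over the 7 arrays (vertical axis) on each array (horizontal axis) for tpm4a and mybpc2b in black and their 3 nearest genes as dashed lines. The lines of tpm4a step up from normoxic to hypoxic gastrulae and again to segmentation, and those of mybpc2b are highest on the hypoxic segmentation array, save for gc, which is highest on a hypoxic gastrula array.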

How the data were processed

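The authors deposited a table of 37157 rows by 8 samples. The deposited log2 values were summarised by the authors with RMA, per the submitters' processing notes, with the version not given; the log2 scale is read from their span of 6.85 to 15.96. Neither the array design nor the scanner is given in the sources used here. The column of hypoxic segmentation replicate 2 held 0 values and was not analysed. Row names were looked up in RefSeq's gene table for GRCz12tu, which supplied symbols only: 2663 of 3055 RefSeq rows matched, or 7.17% of all rows.

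All rows were fitted in limma 3.58.1 (R 4.3.3) with terms for group and dye, moderated by empirical Bayes (2 residual and 2.92 prior degrees of freedom). Two-sided p-values were adjusted by Benjamini and Hochberg over the whole table, with a threshold of 0.05, and errors of fitted differences are standard errors (SE). The script was tested on simulated data. The number of arrays limits the precision. Replicates are called biological in the labels without saying whether they came from separate clutches, so p-values may measure technical spread alone.

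The members and lists were chosen with earlier results of these data known. List genes named are the 4 of each list with the smallest p in the stage comparison among hypoxic embryos, and a gene with several rows was represented by the one with the highest mean; each of the 7 genes has 1. The deviations of same-numbered normoxic and hypoxic gastrula samples correlated at -0.15, so the numbers were not taken to pair them. Those of same-numbered normoxic gastrula and normoxic segmentation samples, which carried opposite dyes, correlated at 0.54. What samples of the same number share was not tested. The main fit has a dye term and no term for the number, so its fitted differences and p-values do not allow for that correlation. Other settings were no dye term, a replicate block, quantile normalization, median centring, the lowest 25% of rows removed, an intensity trend and each array left out in turn.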

Additional observations from a re-analysis of the deposited data

Results flagged for a closer look

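The arrays of tpm4a lay on opposite sides of their controls at the 2 stages: both hypoxic gastrulae were above both of their controls, and the hypoxic segmentation array was below both of its own. How many rows of the table do so was not counted. The fitted difference between the responses, segmentation minus gastrula, was -2.77 ± 0.56 on the log2 scale, with an unadjusted p of 0.0045 and a limma adjusted p of 0.99986, so it did not pass. The segmentation side was -0.40 ± 0.44 from 1 hypoxic array, and -0.019 without segmentation normoxia replicate 1. The normoxic arrays on which tpm4a was picked enter the difference and favour this sign.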

How the results depend on the processing

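For the stage comparison among hypoxic embryos, all 7 genes stayed above 0 in every setting run. The count of genes past the threshold was 2, and became 1 without the dye term and 0 with a replicate block; leaving out 1 array gave 0 to 2. Rows past it went from 890 to 1555 and 0, and leaving out 1 array gave 0 to 2568. In the hypoxia comparison at the gastrula stage the count of genes went from 0 to 1, tpm4a, without the dye term (rows 0 to 3025), with an intensity trend (1712), after median centring (1300) and when the lowest 25% of rows were removed (2002), and leaving out 1 array gave 0 to 1 (rows 0 to 8275). Pairing gastrula normoxia 1 with hypoxia 2, a crossed replicate block chosen after seeing the data, gave 1 gene and 5348 rows there, and 0 genes and 1047 rows between the hypoxic stages. At segmentation 9 rows passed without dye, against 0, and 0 of the 7 genes in any setting.

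Values near 0 changed sign. In gastrulae acta1b became 0.060 after quantile normalization, and ripply1 -0.14 and smyd1b -0.028 after median centring; with 1 array left out ripply1 ran from -0.083 to 0.15, smyd1b from -0.043 to 0.34 and meox1 from -1.03 to 0.29. At segmentation meox1 became -0.44 and uncx4.1 -0.16 without dye, meox1 -0.030 and uncx4.1 -0.048 with median centring, smyd1b 0.22 after quantile normalization, and meox1 -0.19 and smyd1b 0.078 under the replicate block, plain or crossed. With 1 array left out meox1 ran from -0.19 to 0.46, uncx4.1 from -0.29 to 0.16, smyd1b from -0.34 to 0.078 and acta1b from -0.38 to 0.14. None of the 7 genes has several rows, so averaging rows gave no other value. The causes were not tested.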
